A study of Homo sapiens with 6 samples.

Results

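The 10 genes described here encode SR-related and LUC7-like proteins: LUC7L, LUC7L2, LUC7L3, PNN, SON, SCAF11, SRRM1, SRRM2, ACIN1 and BCLAF1. They were chosen by name, with earlier results from this annotation in view, and all 10 are among the 13721 gene names of the deposited exon annotation, 12462 of which have at least 1 intron. The study sequenced 6 poly(A)-selected libraries of U-87 MG, a human glioma cell line in long use. For 3 libraries the cells were kept for 72 h with DMSO, the vehicle, at 10 ul in 10 ml of medium. For the other 3 they were kept for 72 h with 10 uM EPZ015666, which inhibits PRMT5, an enzyme that methylates arginines of Sm proteins and other splicing factors. The annotation is a single file for the series, with hg19 coordinates, and has 0 columns of values per library. Depth and replicate spread are therefore unknown, no level can be given, and nothing below compares EPZ015666 with DMSO. All counts are descriptions of listed gene structures, and because the members were chosen with these structures known, none of them was tested.

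SR-related proteins carry stretches rich in arginine and serine, like the classical SR proteins, and most work in the splicing of precursor mRNA without being core snRNP subunits. The LUC7-like proteins bind the U1 snRNP, the particle that recognises the 5′ splice site of an intron. SON and SRRM2 build nuclear speckles, the compartments in which splicing factors gather. PNN and ACIN1 each assemble with RNPS1 and SAP18 into a complex that sits on the exon junction complex, and SRRM1 is a splicing coactivator that associates with it. Genes of splicing factors often hold poison exons, whose inclusion brings a stop codon into frame and sends the mRNA to nonsense-mediated decay (NMD), or introns that are retained.

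The isoforms of a gene are runs of rows from 5′ to 3′ under 1 parent name. Many runs close with an overlapping pair of rows, an exon followed by a shorter or longer form of it, and there the later row was taken as the final exon. A spanned intron is an intron spliced in one isoform and covered end to end by a single exon listed for the same gene, with the outer edges of both flanking exons. The submitters' file label names detained introns and consensus coding isoforms, but no row says which entries stand for a detained intron, so a spanned intron or a final exon cannot be read as one. An early end is the end of a final exon that lies before the start of the gene's most distal final exon. Listed exons were set beside GENCODE v29, an annotation of another genome build, by the distances between exons within a gene and never by position. All 10 members could be laid over it in this way, as could 9954 of the 12462 genes with introns.

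The sequences below are the letters around the introns and exons on which the descriptions turn. The set of splice sites holds introns that a listed exon runs through, and gaps listed inside exons that GENCODE gives as 1 coding piece. Each line has 10 letters of exon and 20 of intron or gap, 5′ to 3′ on the gene's strand, from GENCODE transcripts, and capitals mark the outermost pair of intron letters.
LUC7L3, start of the 444-base intron: acattttgagGTacattgttttgtctcagc
LUC7L3, end of the 444-base intron: gactaccatacctcacacAGcgttggtgtt
PNN, start of the 108-base and 112-base introns: tgttaaaaagGTattgagattgaaagaact
PNN, end of the 108-base intron: gagattttctttttctgcAGccagcattgc
PNN, end of the 112-base intron: ttttctttttctgcagccAGcattgcagtc
SCAF11, start of the 377-base intron: atgggcagagGTaagtctgacacattaatg
SCAF11, start of the 2100-base intron: tgctgcttgtTTttcttttgtgcctttgtt
SCAF11, end of the 2100-base intron: cttcctttaaatggccacAGtgtgtactgc
SON, start of the 1270-base gap: ctataatacgGTagcacaggagctgcctac
SON, end of the 1270-base gap: gatgtcatcgtactctgcAGctgaccgatc
SCAF11, start of the 2361-base gap: gatgccccagGTaacagtaatccatcttta
SCAF11, end of the 2361-base gap: gttctcatttgatacaccAGcagatagatc
SRRM1, start of the 141-base gap: cggaaaactcGTaggttatctccttcagca
SRRM1, end of the 141-base gap: tcgtgtttctgtgtctccAGggagaacttc
All but one of these starts read GT, the exception being the 2100-base intron of SCAF11, and all of the ends read AG.

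The other set shows coding letters that run into a stop codon. In each line the first 15 letters come from the exon before in a GENCODE transcript, the rest runs through the listed exon or intron as far as that transcript's stop codon, and the stop is in capitals. The frame is that of the GENCODE transcript, which can differ upstream from the listed isoform. For LUC7L3-206, SRRM1-223 and BCLAF1-206 all listed internal exons upstream are in the transcript, while SON-208 has 6 of 9 and SRRM2-211 has 0 of 11. For the 126-base exon of LUC7L3, LUC7L3-205 has 2 of 11, and the listed exon before it is one of 77 bases that no GENCODE transcript has. That exon ends elsewhere than the exon before in LUC7L3-205, so the first letters are not those of the listed isoform. Whether the frame is the same was not worked out.
LUC7L3, 193-base exon: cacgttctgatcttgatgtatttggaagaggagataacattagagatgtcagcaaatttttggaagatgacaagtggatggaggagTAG
LUC7L3, 126-base exon: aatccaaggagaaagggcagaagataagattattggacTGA
SON, 80-base exon and the start of the next: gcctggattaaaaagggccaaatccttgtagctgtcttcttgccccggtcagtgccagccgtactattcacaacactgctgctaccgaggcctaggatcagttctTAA
SRRM1, 130-base exon: cagctggaagtgaaggccTGA
SRRM2, 95-base exon: ggtggcactgaagagaggacagaacTAG
BCLAF1, 163-base exon: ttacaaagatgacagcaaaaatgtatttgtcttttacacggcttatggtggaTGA
LUC7L3, into the 444-base intron: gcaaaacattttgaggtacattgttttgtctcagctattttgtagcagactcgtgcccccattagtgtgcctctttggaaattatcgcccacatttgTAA
PNN, into the 108-base intron: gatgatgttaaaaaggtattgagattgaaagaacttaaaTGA

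The 10 genes were listed with 522 rows, which form 41 isoforms, 32 of them distinct. They had 28 final exons by start position and 23 distinct 3′ ends. Of the members, 6 had 2 or more final exons (LUC7L2, LUC7L3, PNN, SON, SCAF11 and SRRM2), beside 22.5% of all genes with introns. The same 6 had an early end, beside 17.1%. By its definition an early end needs 2 or more final exons, so these 2 counts are not separate. The 4 members with a spanned intron were LUC7L3, PNN, SON and SCAF11, beside 4.18%. This count depends on the choice between overlapping rows: with the earlier row kept, SON was the 1 member left, beside 2.79%. A long internal exon, of 1000 bases or more, was listed in 6 members (LUC7L2, SON, SCAF11, SRRM1, SRRM2 and ACIN1), beside 21.8% of genes with an internal exon. These features were in view when the members were chosen, so the shares of members carry no weight against the background. Members had 8 to 19 introns in the isoform with most introns, and among the 5113 genes in that range 26.3% had 2 or more final exons and 5.03% a spanned intron.

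**Figure D1:**
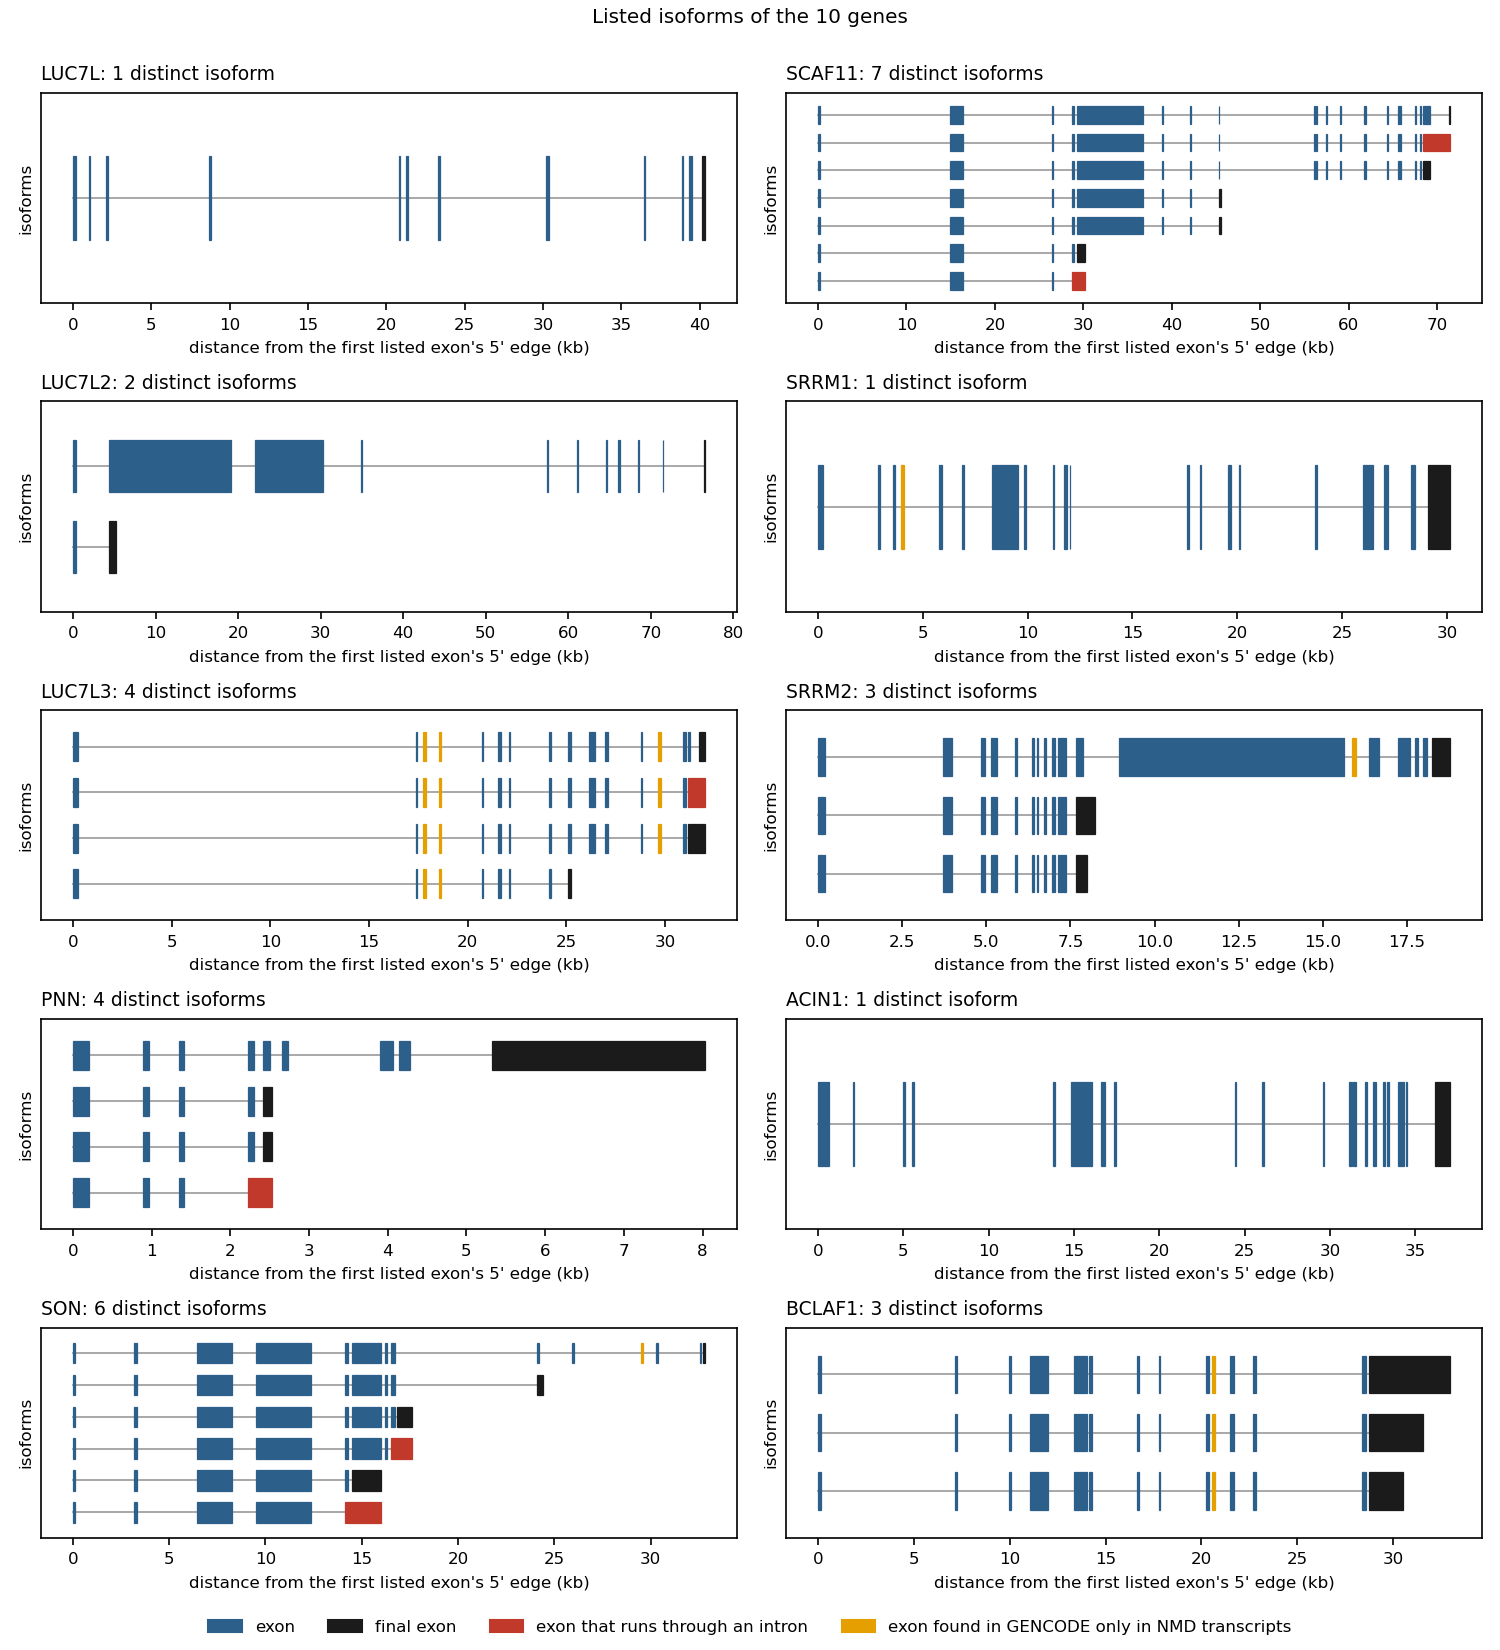
Distinct listed isoforms of each of the 10 genes, one row per isoform, drawn to scale against the distance in kb from the 5′ edge of the first exon. Boxes are exons, and black boxes are final exons. Red boxes are exons that run through an intron and share the outer edges of the exons flanking it. Orange boxes are exons that GENCODE has in transcripts marked for NMD and in no protein-coding one. SON and SCAF11 have the most isoforms (6 and 7), and LUC7L, SRRM1 and ACIN1 have 1.

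Of the LUC7-like genes, LUC7L had the plainest structure. It was listed on chromosome 16 (239098 to 279449, minus strand) with 1 isoform of 12 exons and 11 introns of 405 to 11984 bases. Its final exon of 241 bases ended within 1 base of a GENCODE transcript, LUC7L-213, that is marked as holding a retained intron. LUC7L and its paralog LUC7L2 kept a common exon plan. In order, 6 exons of 95, 99, 111, 144, 177 and 30 bases had equal lengths in both genes, out of 12 in LUC7L and 11 in LUC7L2. LUC7L3 had no exon length in common with either in this sense (0 of 16 exons).

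LUC7L2 (chromosome 7, 139025879 to 139102475, plus strand) was listed with 2 isoforms. In GENCODE the first part of both shares exon edges with another gene and with a read-through transcript. The shorter isoform has 2 exons, of 390 and 819 bases, and the second (139030247 to 139031065) equals the last exon of FMC1-201, the protein-coding transcript of the neighbouring gene FMC1. The longer isoform starts with the same 390-base exon and goes on with an exon of 14822 bases (139030247 to 139045068), which runs from the start of FMC1's last exon to the 3′ edge of LUC7L2's own first exon. The next exon, of 8288 bases (139047922 to 139056209), shares only its 3′ edge with GENCODE, where the exons ending there have 77 and 52 bases. After it come 8 exons of 30 to 192 bases that GENCODE also has. The final exon of 192 bases stopped after 85.1% of the longest GENCODE coding sequence, 4782 bases before the nearest GENCODE end. Without the isoform that ends in the FMC1 exon, 5 members had 2 or more final exons. C7orf55-LUC7L2-201, a protein-coding read-through transcript of both genes, has 11 exons in GENCODE. It shares the 3′ edge of the 390-base exon, the 5′ edge of the 14822-base exon and both edges of the 8 later exons. The listed final exon of 192 bases is its exon 10, so it is not the last exon there. The names FMC1 and C7orf55-LUC7L2 were looked up after the rows were seen.

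LUC7L3 (chromosome 17, 48796927 to 48828978, plus strand) had 15 introns and 4 final exons, 3 of which shared the end at 48828978. Among these 3, the exon of 871 bases (48828108 to 48828978) ran through the gene's last intron, of 444 bases (48828214 to 48828657). So did the exon of 894 bases (48828085 to 48828978). GENCODE has this intron as an intron, and 2 protein-coding transcripts, LUC7L3-202 and LUC7L3-208, hold an exon across it. In LUC7L3-202 the reading frame goes into the intron and meets TAA with its first base at position 83 of the intron. The 894-base exon began 23 bases upstream of the 871-base one. It therefore lacks the outer edge of the exon before the intron, which the definition of a spanned intron asks for. The early end at 48822153 cut an internal exon 21 bases short of its 3′ edge, left 7 exons after it and lay after 45.8% of the coding sequence. The nearest GENCODE end was 3 bases away.

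PNN (pinin) had the shortest gene of the set, with 8 introns on chromosome 14 (39644388 to 39652422, plus strand) and 4 final exons. Apart from the main final exon of 2716 bases (39649707 to 39652422), 3 final exons ended at the same place, 39646912, inside intron 5. The longest of them, of 297 bases (39646616 to 39646912), ran through intron 4 (39646689 to 39646796, 108 bases). Another of 116 bases started where intron 4 ends (39646797) and went 21 bases past the 3′ edge of that internal exon. The one of 112 bases started 4 bases further on, at 39646801. The printed ends of the 108-base and 112-base introns show both of these AG pairs, 4 bases apart. GENCODE has the 297-base exon as the end of PNN-205, a protein-coding transcript, and its stop codon TGA begins at base 25 of the intron. The end at 39646912 lay after 19.6% of the longest coding sequence, and neither AATAAA nor ATTAAA occurred in its last 50 bases.

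Among the speckle proteins, SON (chromosome 21, 34915351 to 34948199, plus strand) had 13 introns and 6 final exons with 4 ends. Its early ends at 34931362, 34932973 and 34939773 lay after 86.9%, 91.5% and 93% of the coding sequence, and each coincided with the end of a protein-coding GENCODE transcript (SON-203, SON-201 and SON-205). The final exon of 1901 bases (34929462 to 34931362) ran through the 229-base intron 34929623 to 34929851. A final exon of 1081 bases (34931893 to 34932973) ran through the 101-base intron 34932082 to 34932182. Both are introns in GENCODE, and no GENCODE exon crosses either. The one at 34939773 extended an exon of 111 bases by 200. The most distal exon, of 116 bases (34948084 to 34948199), covered up to 99.2% of the coding sequence and lay 554 bases from the nearest GENCODE end.

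SON also had an exon that changed place. The 1511-base exon 34929852 to 34931362 closes one isoform, as it does SON-203, but in all longer isoforms it is listed as internal. GENCODE has this exon only as a last exon. SCAF11 showed the same arrangement in its 785-base exon, described below. These were 2 of the 133 internal exons of the members, beside 0.137% of internal exons in all compared genes. The main coding exon of SON, of 5916 bases in GENCODE, was listed as 1814 and 2832 bases with a gap of 1270 bases between them (34923596 to 34924865). That gap begins with GT and ends with AG, and its length is not a multiple of 3.

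SRRM2 (chromosome 16, 2802628 to 2821413, plus strand) had 17 introns, 2 final exons and 3 ends. Both early ends extended the 199-base exon that starts at 2810302, by 122 bases to 2810622 and by 347 bases to 2810847. They lay after 12.5% of the coding sequence and directly before the 6701-base exon (2811562 to 2818262), which carries most of the coding sequence and which GENCODE has in full in SRRM2-201. The end at 2810622 equals that of SRRM2-229, marked as a retained-intron transcript, and the end at 2810847 equals those of SRRM2-205, a protein-coding transcript, and SRRM2-225. A further internal exon of 262 bases (2809748 to 2810009) is in GENCODE the first exon of a single non-coding transcript.

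SCAF11 (chromosome 12, 46312915 to 46384401, minus strand), an SR-related protein that binds the SR protein SRSF2, had 18 introns, 6 final exons and 4 ends. The earliest end, at 46354239, lay after 4.99% of the coding sequence with 14 exons still to come. Of the 2 final exons that stop there, the one of 1402 bases (46354239 to 46355640) ran through the 377-base intron 46355106 to 46355482, and the one of 867 bases began after it. The next end, at 46338868, lay after 10.5% of the coding sequence, and its 2 final exons of 229 and 226 bases began 3 bases apart. Both ends match protein-coding transcripts, SCAF11-203 and SCAF11-215, to within 1 base.

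At its 3′ end SCAF11 had a final exon of 3063 bases (46312915 to 46315977), one of 785 bases ending at 46315193, and one of 178 bases (46312915 to 46313092) preceded by the 785-base exon. The space between the last pair is the 2100-base spanned intron (46313093 to 46315192). GENCODE does not list it as an intron. The printed start reads TT where the other introns read GT, AATAAA begins 21 bases before the end at 46315193, and SCAF11-205 ends within 1 base of it. The whole coding sequence lies before this end. In the middle of the gene, the 2718-base coding exon was listed as 207 and 150 bases with a gap of 2361 bases (46320075 to 46322435). This gap begins with GT, ends with AG and has a length divisible by 3. An internal exon of 7495 bases (46347611 to 46355105) shared only its 5′ edge with GENCODE, where the exon starting there is the 868-base last exon of SCAF11-203. The 1545-base exon 46367973 to 46369517 is in GENCODE in 1 transcript, SCAF11-201.

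**Figure D2:**
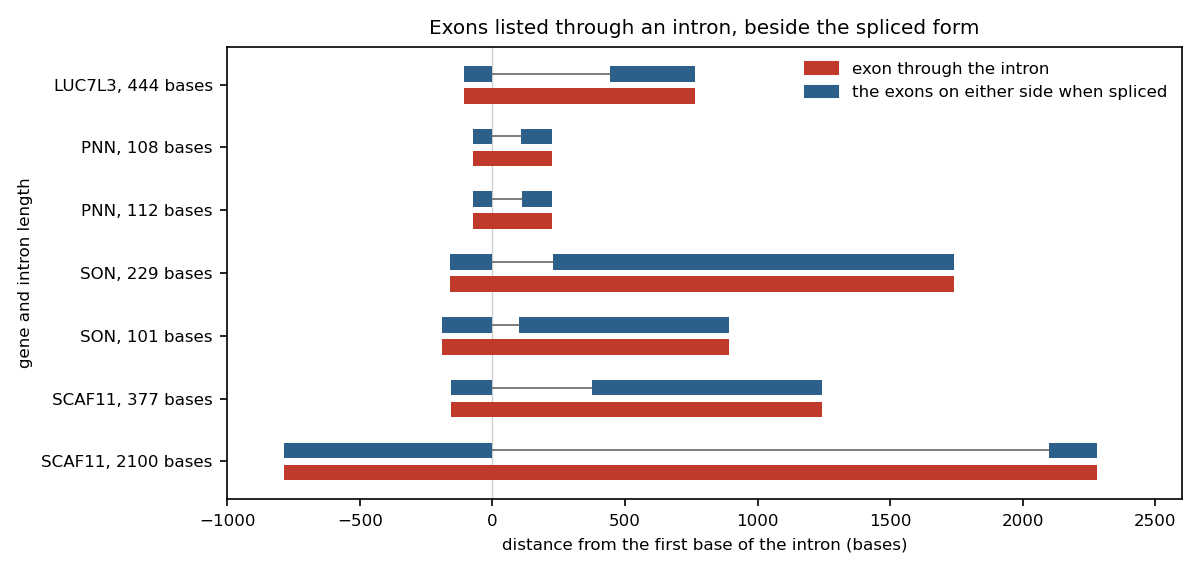
The 7 spanned introns of the 4 members, against the distance in bases from the first base of the intron. Red is the exon listed through each intron with the same outer edges. Blue shows the exons on either side when spliced, with a thin line for the intron. Lengths run from 101 bases in SON to 2100 in SCAF11, and both SON exons continue far past the intron while that of PNN stops soon after it.

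Of the 7 spanned introns of the members, counted with the later of overlapping rows, 5 are introns in GENCODE. The exceptions are the 112-base intron of PNN and the 2100-base intron of SCAF11. The share of GENCODE introns among the spanned introns of all compared genes was not taken. A GENCODE exon crosses 4 of the 7, beside 24.7% of the spanned introns in all compared genes. These 4 include both introns of PNN, which start at the same base and are crossed by the same exon of PNN-205. They also include the 2100-base intron of SCAF11. Counted from the shortest intron of the isoform with most introns, the 444-base intron of LUC7L3 ranked 4 of 15 and the 108-base intron of PNN 2 of 8. The 229-base intron of SON ranked 4 of 13, and those of SCAF11 ranked 3 (377 bases) and 9 (2100 bases) of 18. Such ranks were not taken for the spanned introns of other genes, so whether they are usual is unknown. The introns of 444, 108 and 2100 bases have lengths divisible by 3, and the others do not. No share of such lengths over all spanned introns was taken, so this is a description only.

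**Figure D3:**
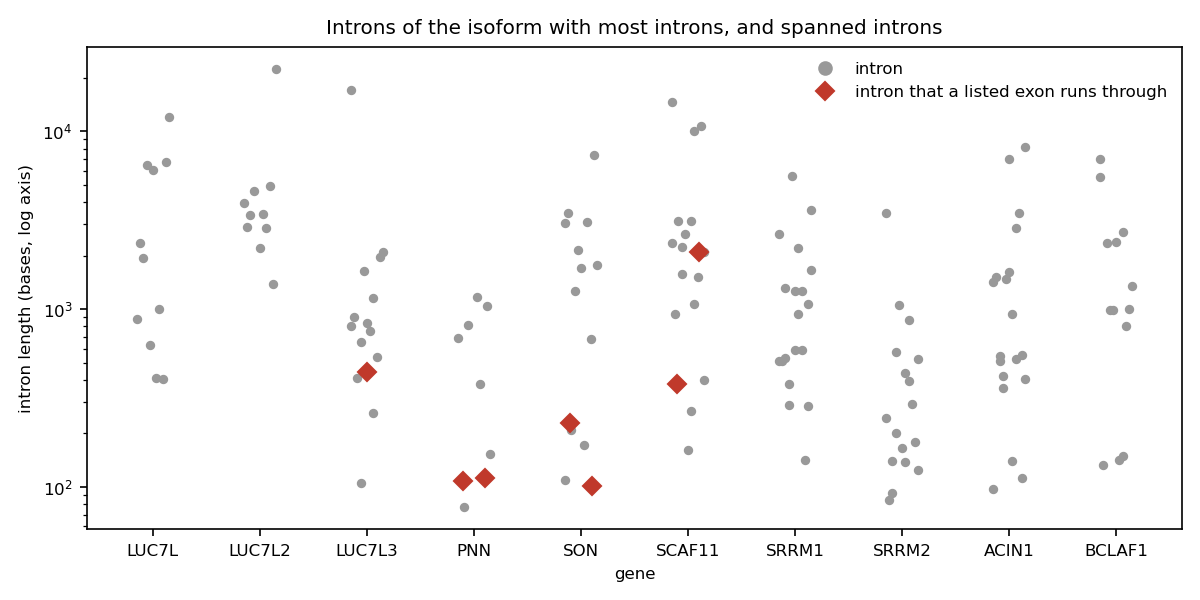
Length in bases (log axis) of each intron in the isoform with most introns (grey points) and of the introns that a listed exon runs through (red diamonds), for each gene. Except for the 2100-base intron of SCAF11, the diamonds lie among the shorter introns of their gene.

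The members associated with the exon junction complex other than PNN had 1 final exon each. SRRM1 (chromosome 1, 24969595 to 24999758, plus strand) had 19 introns and a final exon of 1086 bases that ended where SRRM1-201 ends. Its 1220-base exon (24977900 to 24979119) joins GENCODE exons of 204 and 195 bases and the 821-base intron between them. The 275-base coding exon was listed as 116 and 18 bases with a 141-base gap (24981462 to 24981602) that begins with GT, ends with AG and has a length divisible by 3. A 38-base exon (24980797 to 24980834) is in GENCODE only in a non-coding transcript. ACIN1 (chromosome 14, 23527774 to 23564823, minus strand) had 19 introns, and all of its listed internal exons are in protein-coding GENCODE transcripts, the 1263-base exon (23548756 to 23550018) in 4 of them.

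BCLAF1 (chromosome 6, 136578002 to 136610989, minus strand), which works with the related protein THRAP3 in mRNA processing, had 13 introns and 1 final exon start with 3 tandem ends. From the start at 136582253 the final exon ran 1764 bases to 136580490, 2821 bases to 136579433 or 4252 bases to 136578002. Each of these lies within 1 base of a GENCODE end (BCLAF1-213, BCLAF1-217 and BCLAF1-201), after the whole coding sequence, and AATAAA begins 36, 22 and 22 bases before them. When final exons are counted by end instead of start, BCLAF1 joins the genes with 2 or more, which makes 7 members, beside 35.2% of all genes with introns.

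**Figure D4:**
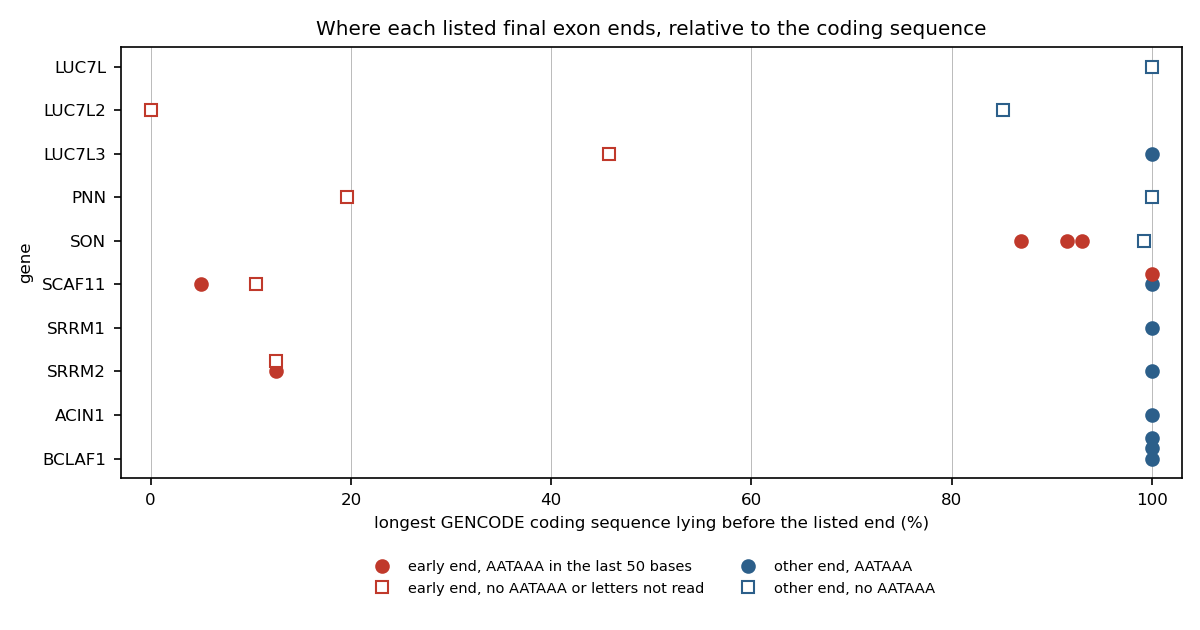
Share of the longest GENCODE coding sequence (%) that lies before each distinct listed end, for each gene, with ends at nearly the same share stacked. Red marks early ends and blue the others, and filled circles mark ends with AATAAA in the last 50 bases. Early ends of SCAF11, SRRM2 and PNN fall at 4.99 to 19.6% except for one of SCAF11 at 100%, and those of SON at 86.9 to 93%.

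Of the 23 distinct ends of the members, 19 lay within 1 base of a GENCODE transcript end, beside 66.5% of ends in all compared genes. The exceptions are both ends of LUC7L2, the early end of LUC7L3 and the last end of SON. The end of LUC7L2's short isoform lies within 1 base of an end of FMC1. The hexamer AATAAA, the main signal for cleavage and polyadenylation, was searched on the transcribed strand in the last 50 bases. It was present at 14 of the 22 member ends whose letters could be read, beside 52.7% of such ends in all compared genes. On the other strand the hexamer occurred at 6.63% of all those ends. Of the members' early ends 6 of the 10 with letters had it, and of their other ends 8 of 12, while over all compared genes the shares were 56.1% at early ends and 52% at others. At SON the 3 early ends had it 20, 24 and 22 bases upstream. The last end of SON lacked it, and lies after 99.2% of the coding sequence and 554 bases from the nearest GENCODE end. The last end of LUC7L2 also lacked it, and lies after 85.1% of the coding sequence and 4782 bases from the nearest GENCODE end. The last ends of LUC7L and PNN lacked it too, and both lie after 100% of the coding sequence and within 1 base of a GENCODE end. That of PNN had ATTAAA 18 bases upstream, and that of LUC7L had neither hexamer. At SRRM2 AATAAA lay 25 bases before 2810622 and was absent at 2810847, where ATTAAA lay 28 bases upstream.

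Internal exons that GENCODE has in an NMD transcript and in no protein-coding one, called NMD-only here, were listed in 5 members, LUC7L3, SON, SRRM1, SRRM2 and BCLAF1, beside 7.94% of compared genes with an internal exon. Among genes with as many introns and GENCODE transcripts as the members the share was 10.1%, in 377 of 3742 genes. There were 7 such exons. The lengths of 5 are not divisible by 3, but no share of such lengths over all compared genes was taken, so this is a description only. LUC7L3 had 3 of them, of 193 bases (48814648 to 48814840), 63 bases (48815498 to 48815560) and 126 bases (48826580 to 48826705). In the frames of the GENCODE transcripts shown above, the stop codon begins at base 72 of the 193-base exon and at base 24 of the 126-base exon. The 63-base exon is in GENCODE only in LUC7L3-212, whose letters are not shown, and there the stop codon lies upstream of the exon. SRRM1 had one of 130 bases (24973570 to 24973699) with TGA from base 4, and SRRM2 one of 95 bases (2818506 to 2818600) with TAG from base 11. BCLAF1 had one of 163 bases (136590279 to 136590441), found in 6 GENCODE transcripts, with TGA from base 38. In SON the 80-base exon (34944857 to 34944936) holds no stop in its frame, and TAA begins at base 11 of the exon after it. Every listed isoform that runs across one of these exons includes it, but few distinct isoforms do so. They number 1 each for SON, SRRM1 and SRRM2, and 3 for BCLAF1, which differ in their tandem ends. For LUC7L3 they number 4 for the 193-base and 63-base exons and 3 for the 126-base exon. How often such an exon is included in the cells cannot be read from this.

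Gaps inside a GENCODE coding exon were listed in 3 members, SON, SCAF11 and SRRM1, beside 3.04% of compared genes. All 3 gaps begin with GT and end with AG, as do 96% of the gaps with letters in all compared genes, so this is the usual state. Of the 10 long internal exons of the members, 3 hold a whole GENCODE intron (those of 14822 bases in LUC7L2, 1220 in SRRM1 and 6701 in SRRM2), beside 46.7% of long internal exons in all compared genes. Of all 133 internal exons of the members, 110 are in a protein-coding GENCODE transcript, 7 are NMD-only and 2 are only in other non-coding transcripts. The other 14 match no single GENCODE exon at both edges, though the 785-base exon of SCAF11 comes within 1 base of one. The shares of these classes among the internal exons of all compared genes were not taken.

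**Figure D5:**
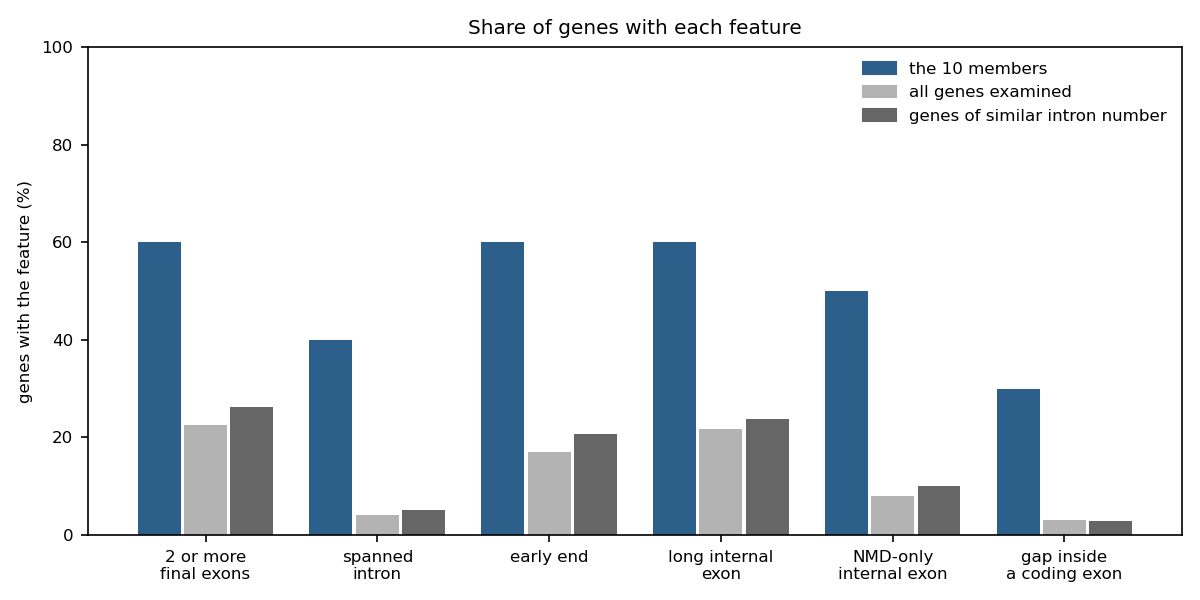
Share of genes (%) with each of 6 listed features, for the 10 members (blue), all genes examined (light grey) and genes within the members' range of 8 to 19 introns (dark grey; for the last 2 features also of 6 to 31 GENCODE transcripts). The members' bars stand at 30 to 60%, and since the members were chosen with these structures known they show no more than their counts.

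The lists of related genes are given by counts. Of all genes with introns, 22.5% had 2 or more final exons, 7.5% had 3 or more and 4.18% had a spanned intron. An NMD-only exon was listed in 7.94% of compared genes with an internal exon. No difference between a list and these shares was tested. Of 9 U1 snRNP and U1-associated genes, 4 had 2 or more final exons, and RBM25 was the 1 with a spanned intron, of 550 bases. TIA1 and RBM25 had 3 final exons each. An NMD-only exon was listed in 3 of these 9 genes (PRPF39, TIA1 and TIAL1), all of which could be compared. Of the 7 exon junction complex genes and partners, including RNPS1 and SAP18, 0 had 2 or more final exons and 2 of the 6 compared (MAGOHB and CASC3) had an NMD-only exon. Among 31 other SR-related genes listed, 7 had 2 or more final exons and 3 a spanned intron: NKTR (307 bases), CIR1 (20386 bases) and RBM39 (3886 bases). RBM39 and DHX8 had 5 final exons, and NKTR and CIR1 had 3. NMD-only exons were listed in 9 of the 29 of these that could be compared. Of 10 classical SR protein genes listed, 4 had 2 or more final exons, and 7 of the 9 compared had an NMD-only exon. SRSF10 was the 1 with a spanned intron (133 bases) and had 4 final exons. Genes with as many final exons and spanned introns as a member, and an intron number within 2 of it, numbered 0 for SON, 1 (NCAM1) for SCAF11, 13 for PNN and 17 for LUC7L3. They numbered 258 for SRRM2, 452 for LUC7L2, 719 each for SRRM1 and ACIN1, 1601 for BCLAF1 and 2053 for LUC7L. These numbers use the later of overlapping rows.

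Whether a gene is listed was checked against markers of the labelled cell type. Of 10 glioma markers 9 were listed, including CD44, VIM and NES, while GFAP was not. Markers of other cell types were listed for 4 of 5 neuron, 1 of 4 oligodendrocyte, 2 of 4 myeloid and 1 of 3 endothelial genes. Listing gives no level, and its bearing on the members was not tested.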

How the data were processed

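The deposited annotation holds 382567 exon rows with start and end positions, and no other measurement. The sources used here do not give the steps by which the authors made it. Tools named in the submitters' processing notes, with no roles given, are RSEM, DESeq 1.10.1, bedtools 2.20.1, STAR 2.4.1d and Bowtie 1.0.1, and the builds are hg19 and GRCh37. Expression tables were not analysed here. Rows whose end preceded their start (76) were dropped, and the rest formed 31659 isoforms. The members and gene lists were chosen with earlier results of these data known. All 10 members are named, and of the lists every gene with a spanned intron or 3 or more final exons. A gene was compared with GENCODE v29 (GRCh38) where at least 3 exons of equal length shared 1 spacing. Of the genes with introns, 1487 lacked this, 967 names were absent from it and 54 lay on another chromosome or strand. Letters come from its transcripts. The overlay, splice and hexamer comparisons were chosen after the file was seen. Scripts ran in Python 3.11.15 and were tested on simulated isoforms. No genome of build hg19 was used.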

Additional observations from a re-analysis of the deposited data

How the results depend on the processing

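No paired analysis was possible because the annotation holds no values per library, although the replicate numbers of the labels recur in both groups. Where consecutive rows of an isoform overlap, keeping the earlier row in place of the later left 1 member with a spanned intron, SON, in place of 4, beside 2.79% of all genes. Early final exons fell from 17 to 10 when the end had to lie inside an intron of the isoform with most introns. The other counts stayed within 1.5 times under every alternative run: members with final exons past the minimum ranged from 4 (3 or more, beside 7.5% of all genes) to 7 (by end, beside 35.2%). Members with a long internal exon ranged from 4 (2000 bases, beside 15%) to 7 (500 bases, beside 32.1%). The count of serine-arginine dipeptides and its alternative were not run, since protein sequences were not used here. Alternatives on the GENCODE overlay, the hexamer and FMC1 were added after seeing the data. Depth is unknown, so the support behind any listed end or exon cannot be given.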
